A study of Rattus norvegicus with 12 samples.

Results

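Aquaporins are membrane channels for water, and some of them also carry glycerol. The 8 aquaporins described here, Aqp1, Aqp2, Aqp3, Aqp4, Aqp6, Aqp7, Aqp8 and Aqp11, were taken with every array probe set that named a single one of them, which gave 11 probe sets for 8 of the 14217 genes on the table. Aqp4 had 3 probe sets, Aqp1 had 2 and the others had 1 each. The rule uses no measured value, but the family was chosen with earlier results of these data known. Kidney RNA of 4 rat strains was measured on Affymetrix rat expression arrays. PCK is a strain of Sprague Dawley origin with mutated Pkhd1, which in people underlies autosomal recessive polycystic kidney disease, and SD is Sprague Dawley. FHH.Pkhd1, in full FHH.PCK-(D9Rat35-D9Rat70)/Mcwi, is a congenic strain that carries a PCK stretch of chromosome 9 on the FHH background, so every gene between those markers comes with Pkhd1, and FHH is the Fawn Hooded Hypertensive strain. Rats of every strain were killed at 30 days of age and ate 5LOD diet, and the labels name no other treatment and no sex. For each strain the RNA of both kidneys of 6 animals was combined into 1 pool, which was hybridized to 3 arrays. The 3 arrays are technical replicates, so each standard deviation (SD, n = 3 arrays), standard error (SE) and p-value below rests on how much arrays of 1 pool differ, and none describes the spread between animals or strains. With 1 pool a strain, the mutation cannot be told apart from any other difference between the strains or pools compared.

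Aquaporins are placed segment by segment along the nephron. In the proximal tubule Aqp1, in both the brush border and the basolateral membrane, lets most of the filtered water be reabsorbed, and it does the same in the thin descending limb; it is also abundant in the endothelium of the descending vasa recta and in red cells. Aqp7, in the brush border of the straight proximal tubule and in fat cells, carries glycerol as well as water. Aqp11 lies in the endoplasmic reticulum of proximal tubule cells, and mice without it form vacuoles and then cysts in the proximal tubule. Aqp8 has been placed inside proximal tubule and collecting duct cells, in mitochondria among other sites. In the principal cells of the collecting duct Aqp2 is moved to the apical membrane when vasopressin raises cAMP, and water leaves through Aqp3 and Aqp4 on the basolateral side. Aqp6 lies in vesicles of acid-secreting intercalated cells and conducts anions at low pH. Human autosomal recessive polycystic disease arises mainly in the collecting duct.

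The aquaporin genes lie on 5 chromosomes of the GRCr8 assembly, none of them chromosome 9, where Pkhd1 and the congenic stretch are. Aqp2 (chr7:132590286-132595321) and Aqp6 (chr7:132611069-132614004) are neighbours with Aqp5 between them, and 15.7 kb separate Aqp2 from Aqp6. Aqp7 (chr5:60968495-60982618) and Aqp3 (chr5:61035165-61040683), the glycerol carriers, are 52.5 kb apart. Aqp1 is at chr4:85812784-85824964, Aqp4 at chr18:6782389-6799034, Aqp8 at chr1:187424314-187430243 and Aqp11 at chr1:161457752-161467918. A RefSeq promoter entry was matched for 7 of the 8 genes. Printed below are those of Aqp2 and Aqp3, whose levels were lowest in SD and next lowest in FHH, and that of Aqp11, which ordered the pools otherwise. Each is the 250 bases before the start of the gene in the reference rat genome (RefSeq, GRCr8), not the sequence of any of the 4 strains, written 5′ to 3′ on the strand of the gene; capitals mark the motif matches.
Aqp2 (chr7:132590036-132590285, plus strand): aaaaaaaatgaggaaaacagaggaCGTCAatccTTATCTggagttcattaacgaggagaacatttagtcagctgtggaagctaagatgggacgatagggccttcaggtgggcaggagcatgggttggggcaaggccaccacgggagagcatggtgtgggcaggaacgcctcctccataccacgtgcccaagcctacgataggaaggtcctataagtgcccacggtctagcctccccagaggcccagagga
Aqp3 (chr5:61040684-61040933, minus strand): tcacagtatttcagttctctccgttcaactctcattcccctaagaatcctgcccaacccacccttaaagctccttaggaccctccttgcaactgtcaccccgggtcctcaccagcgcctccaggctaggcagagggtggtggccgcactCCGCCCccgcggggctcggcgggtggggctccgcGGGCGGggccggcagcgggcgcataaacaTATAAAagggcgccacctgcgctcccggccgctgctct
Aqp11 (chr1:161467919-161468168, minus strand): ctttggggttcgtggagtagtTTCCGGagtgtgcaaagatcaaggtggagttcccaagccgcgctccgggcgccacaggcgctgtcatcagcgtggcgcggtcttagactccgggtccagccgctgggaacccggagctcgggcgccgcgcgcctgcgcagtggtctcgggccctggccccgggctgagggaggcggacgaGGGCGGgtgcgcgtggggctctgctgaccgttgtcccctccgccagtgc
The letters searched on both strands were the cAMP response element TGACGTCA, its core TGACG, the AP-1 letters TGANTCA, the GATA letters AGATAA, the TATA letters TATAAA, the ETS letters CCGGAA and the GC box GGGCGG; the core lies within the full element. In the Aqp2 promoter the core matched at -226 to -222, counted back from the start, and the GATA letters at -217 to -212, both on the opposite strand. The core is in 18.2% and the GATA letters are in 10.3% of the 33469 rat promoters of this length. The Aqp3 promoter held neither; it held the TATA letters at -38 to -33, which are in 12.9% of promoters, and the GC box at -67 to -62 and at -101 to -96, which is in 30.5%. The Aqp11 promoter held the ETS letters at -229 to -224, found in 12.6% of promoters, and a GC box at -49 to -44. None of these windows held the full response element (1.59% of promoters) or the AP-1 letters (6.34%). The matches describe these letters only, and no binding was measured.

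All values are log2 signals, and a difference of 1 between pools is a factor of 2. A gene was tested when the mean of its highest pool reached 5.74, the 40th percentile of the values, which is taken here as the detection level and is not a measured background. Called genes are those whose adjusted p from limma (Benjamini-Hochberg over the 10895 genes tested) was under 0.05 and whose difference reached 1.5-fold, 0.585 on the log2 scale. Of the 8 aquaporins, 6 were tested, and Aqp6 and Aqp8 stayed below the detection level in every pool. A level of one gene is not set against that of another, because probe sets differ in brightness.

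Over the whole table, array medians lay between 6.41 and 6.46, arrays of the same pool correlated at 0.9973 to 0.9985 and arrays of different pools at 0.9862 to 0.9959. With 3 arrays a pool, their number sets the precision. No probe set named Pkhd1. All 26 measured genes of a 27-gene proximal tubule list were above the detection level. The labelling controls added to the RNA differed between pools, with mean log2 signals of 10.86 in PCK, 10.50 in SD, 10.04 in FHH.Pkhd1 and 11.14 in FHH. The 3′ minus 5′ signal of beta-actin, a measure of how far labelling reached, was 1.33 in PCK, 1.10 in SD, 1.20 in FHH.Pkhd1 and 1.39 in FHH. The part of either in the differences below was not tested.

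Of the aquaporins of the collecting duct, Aqp2 and Aqp3 were higher in whole-kidney RNA of the PCK pool than of the SD pool by about 1.5-fold. In the FHH.Pkhd1 pool they were higher than in the FHH pool by about 1.2-fold. Aqp3 passed both limits in PCK against SD, Aqp2 stood just short of the fold limit there, and neither was called in FHH.Pkhd1 against FHH. The SD pool was the lowest of the 4 for Aqp2, Aqp3 and Aqp4.

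Aqp2, the vasopressin-regulated water channel, read 12.70, 12.65 and 12.74 on the PCK arrays, against 12.21, 12.16 and 12.09 on the SD arrays. It read 12.75, 12.74 and 12.75 on the FHH.Pkhd1 arrays, against 12.45, 12.45 and 12.45 on the FHH arrays. The pools with the mutation were the higher ones on each background, and the order was FHH.Pkhd1, PCK, FHH and SD, with no overlap of arrays between neighbours. The first and second in that order were only 0.05 apart, a difference that did not pass the test (adjusted p = 0.285). PCK exceeded SD by 0.54 ± 0.04 (SE; 1.46-fold; limma adjusted p = 3.15e-07), just inside the 1.5-fold limit, and was therefore not called. FHH.Pkhd1 exceeded FHH by 0.29 ± 0.04 (1.23-fold; adjusted p = 0.000145), also not called. SD minus FHH was -0.30 ± 0.04 (adjusted p = 6.41e-05) and was not called.

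Aqp3, a basolateral exit for water and glycerol, read 11.26, 11.24 and 11.12 on the PCK arrays, against 10.54, 10.54 and 10.65 on the SD arrays. It read 11.18, 11.14 and 11.16 on the FHH.Pkhd1 arrays, against 10.93, 10.90 and 10.90 on the FHH arrays. The arrays of PCK and FHH.Pkhd1 overlapped, FHH lay below both and SD was the lowest, and no other neighbours overlapped. Aqp3 was called higher in PCK than in SD, by 0.63 ± 0.05 (SE; 1.55-fold; limma adjusted p = 4.37e-07). It is the one aquaporin called in that comparison, and it stands as close above the fold limit as Aqp2 stands below it. The FHH.Pkhd1 minus FHH difference was 0.25 ± 0.05 (1.19-fold; adjusted p = 0.00212) and was not called. SD minus FHH was -0.34 ± 0.05 (adjusted p = 0.000106) and PCK minus FHH.Pkhd1 was 0.05 (adjusted p = 0.39).

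Aqp4, the other basolateral water channel, had a different order. Its brightest probe set read 9.55, 9.58 and 9.60 on the PCK arrays, against 9.48, 9.43 and 9.50 on the SD arrays. It read 9.98, 9.95 and 10.03 on the FHH.Pkhd1 arrays, against 9.77, 9.78 and 9.75 on the FHH arrays. Both FHH pools were above both SD-derived pools, with FHH.Pkhd1 highest and SD lowest and no overlap between neighbours. PCK lay 0.41 below FHH.Pkhd1 (log2 difference -0.41 ± 0.04; 1.33-fold; limma adjusted p = 1.14e-06) and SD lay 0.29 below FHH (adjusted p = 4.21e-05), and neither reached the fold limit. PCK minus SD was 0.10 ± 0.04 (adjusted p = 0.0404) and FHH.Pkhd1 minus FHH was 0.22 ± 0.04 (adjusted p = 0.00075).

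The dimmer probe sets of Aqp4 gave less clear readings. The second read 4.60, 4.65 and 4.54 on the PCK arrays, 4.91, 4.67 and 4.89 on the SD arrays, 5.81, 5.64 and 5.88 on the FHH.Pkhd1 arrays and 5.29, 5.11 and 5.06 on the FHH arrays. It passed the detection filter only through FHH.Pkhd1, so it had to be high there. In a fit of all 14691 probe sets above the detection level it was called higher in FHH.Pkhd1 than in FHH, by 0.62 ± 0.08 (adjusted p = 0.000224), where 1.78% of probe sets were called. It was called lower in PCK than in FHH.Pkhd1, by -1.18 ± 0.08 (adjusted p = 2.52e-07), where 6.21% were called. The means of the other 3 pools lay below the detection level, so the second probe set gives no support to the order seen with the brightest one, and its PCK and SD signals are not compared. The third probe set stayed between 4.03 and 4.41 on the 12 arrays, below the detection level, and was not tested. The files do not say which transcript of Aqp4 each probe set reads.

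Aqp6, of the intercalated cell, read 3.70 to 4.27 on the 12 arrays, and the arrays of each pool overlapped those of the next pool in the order of levels. It was below the detection level on each of them and was not tested, so neither its presence nor a difference can be stated here.

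**Figure D1:**
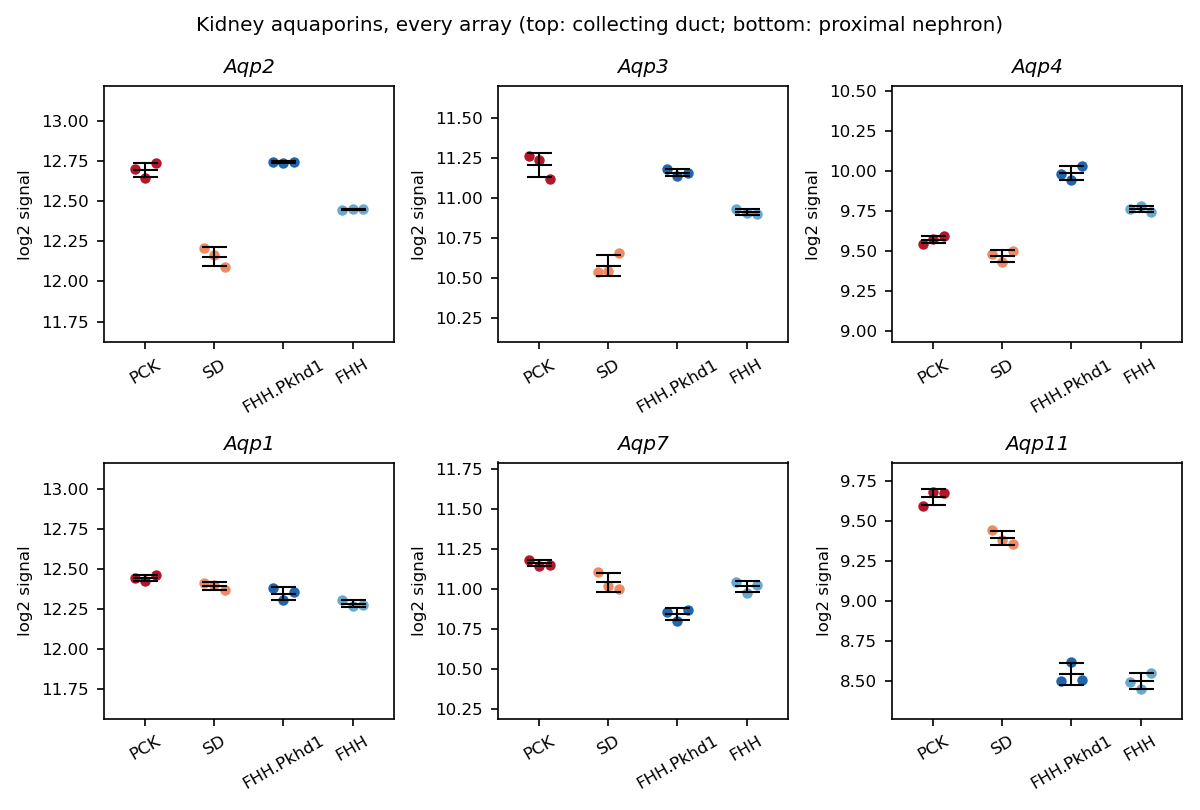
Log2 signal of the brightest probe set of the 6 tested aquaporins (vertical axes, each panel with its own range) on the 3 arrays of the PCK, SD, FHH.Pkhd1 and FHH pools (horizontal axis); points are arrays, long marks are pool means and error bars are SD. Aqp2 and Aqp3 are lowest in SD, and Aqp11 is at 9.65 in PCK and 9.40 in SD against 8.55 in FHH.Pkhd1 and 8.50 in FHH.

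Other collecting duct genes were read from lists chosen with earlier results of these data known. Of 12 principal cell genes 11 were tested, and none was called in PCK against SD, where 9 were above 0 with a median of 0.12, or in FHH.Pkhd1 against FHH, where 8 were above 0 with a median of 0.23; over all genes the medians were -0.003 and 0.01. The largest of them in PCK against SD were Scnn1b and Scnn1g, subunits of the epithelial sodium channel, at 0.44 and 0.35. Kcne1, a potassium channel subunit, was the one principal cell gene called between backgrounds, at 1.56 for PCK against FHH.Pkhd1 and 1.39 for SD against FHH. Of all genes 5.83% and 3.31% were called there. The medians between backgrounds were -0.21 for PCK against FHH.Pkhd1 and -0.14 for SD against FHH. The level of the list, the mean log2 signal of its tested genes on an array (Kcne1 included), was 8.58 to 8.62 in PCK, 8.43 to 8.50 in SD, 8.62 to 8.65 in FHH.Pkhd1 and 8.48 to 8.54 in FHH. The mean of Kcne1 lay below the detection level in both FHH pools, so it passed the filter only through PCK and SD. Without it, the other 10 genes were at 8.84 to 8.87 in PCK, 8.64 to 8.71 in SD, 9.03 to 9.06 in FHH.Pkhd1 and 8.83 to 8.91 in FHH. FHH.Pkhd1 was then highest, PCK and FHH overlapped and SD was lowest. In pooled whole-kidney RNA fewer cells of a type and less RNA per cell cannot be told apart, and the part of cell numbers in the aquaporin differences was not tested.

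Intercalated cells share the collecting duct with the principal cells that hold Aqp2. Of 13 listed intercalated cell genes 9 were tested, of which 7 had their lowest mean in SD. Slc4a1 was lowest in FHH and Insrr, an insulin receptor-related receptor, in FHH.Pkhd1. SD was also lowest for 7 of 11 principal cell, 7 of 8 endothelial, 3 of 4 urothelial and 3 of 4 smooth muscle genes. It was lowest for 3 of 26 proximal tubule, 2 of 8 thick ascending limb, 2 of 4 distal convoluted tubule, 2 of 8 fat cell and 0 of 3 red cell genes. The share over all genes was not counted. All 9 intercalated cell genes were above 0 in PCK minus SD, with a median of 0.35, though 1 was called, where 3.11% of all genes were. That gene was Foxi1, the transcription factor of intercalated cells, higher by 0.63 ± 0.05 (limma adjusted p = 5.68e-07). In FHH.Pkhd1 minus FHH the median was 0.21 and Slc4a1, the chloride-bicarbonate exchanger of red cells and acid-secreting intercalated cells, was called higher by 0.65 ± 0.04 (adjusted p = 5.50e-07). It was the 1 intercalated cell gene called there, where 1.27% of all genes were. The list level was 9.32 to 9.36 in PCK, 9.03 to 9.05 in SD, 9.43 to 9.45 in FHH.Pkhd1 and 9.20 to 9.26 in FHH.

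Genes of the urea and osmolyte systems of the medulla, where the collecting duct concentrates urine, had a median of 0.32 in PCK minus SD over 6 tested of 7, all 6 above 0. Of these 1 was called, where 3.11% of all genes were. It was Slc14a2, the urea transporter that vasopressin regulates, higher by 0.62 ± 0.05 (adjusted p = 5.57e-07). Akr1b1, the aldose reductase that makes sorbitol, was at 0.50 and Slc6a6, the taurine transporter, at 0.46, neither called. In FHH.Pkhd1 minus FHH none was called and the median was 0.13. Urothelial genes, 4 tested of 8, were at a median of 0.43 in PCK minus SD with none called. In SD minus FHH, where 3.31% of all genes were called, their median was -0.46 and 2 were called lower. These were Upk1b at -1.10 and Upk3a at -0.76, plaque proteins of the epithelium that lines the renal pelvis. The list level was 6.38 to 6.43 in PCK, 5.96 to 6.09 in SD, 6.38 to 6.40 in FHH.Pkhd1 and 6.52 to 6.60 in FHH. The part of a different share of medulla in the pools was not tested.

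The vasopressin route regulates Aqp2 and brings it to the membrane. Of 35 listed genes 31 were tested, with a median of 0.04 in both Pkhd1 comparisons. In PCK against SD 1 was called, in FHH.Pkhd1 against FHH none, in PCK against FHH.Pkhd1 1 and in SD against FHH 2, where 3.11%, 1.27%, 5.83% and 3.31% of all genes were called. Avpr2, the vasopressin receptor, was at 0.09 in PCK minus SD and at 0.34 in FHH.Pkhd1 minus FHH. None was called in FHH.Pkhd1 against FHH, where the largest values were 0.37 for Vamp2, a vesicle fusion protein, and -0.37 for Rab11fip2, a recycling protein. Creb1, a transcription factor that binds cAMP response elements, was called lower in PCK than in SD, at -1.13, and higher in SD than in FHH, at 0.95. P2ry2, a nucleotide receptor that opposes vasopressin, was called lower in PCK than in FHH.Pkhd1, at -0.60, and lower in SD than in FHH, at -0.97.

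Of the aquaporins of the proximal tubule and thin limb, Aqp11 differed most between backgrounds, about 2-fold. It differed less or not at all between the pools with and without the mutation. The brightest probe sets of Aqp1 and Aqp7 differed by at most 0.32 on the log2 scale in the 4 comparisons of pools. Aqp8 was below the detection level.

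Aqp11 read 9.60, 9.68 and 9.68 on the PCK arrays, against 8.50, 8.62 and 8.51 on the FHH.Pkhd1 arrays. It read 9.45, 9.38 and 9.36 on the SD arrays, against 8.50, 8.45 and 8.55 on the FHH arrays. Every array of a Sprague Dawley background was at least 9.36 and every array of an FHH background was at most 8.62, and the FHH.Pkhd1 and FHH arrays overlapped each other. Aqp11 was called higher in PCK than in FHH.Pkhd1, by 1.11 ± 0.05 (SE; 2.15-fold; limma adjusted p = 1.29e-09), and higher in SD than in FHH, by 0.90 ± 0.05 (1.86-fold; adjusted p = 1.91e-08). Between the pools with and without the mutation the differences were 0.26 ± 0.05 in PCK minus SD (1.19-fold; adjusted p = 0.000833), not called, and 0.05 ± 0.05 in FHH.Pkhd1 minus FHH (adjusted p = 0.524). Only 1 probe set reads Aqp11.

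Aqp1, the water channel of the proximal tubule and thin descending limb, read 12.44, 12.42 and 12.46 on the PCK arrays, 12.41, 12.40 and 12.37 on the SD arrays, 12.38, 12.31 and 12.36 on the FHH.Pkhd1 arrays and 12.31, 12.27 and 12.27 on the FHH arrays. The PCK arrays were above the SD arrays, while SD overlapped FHH.Pkhd1 and FHH.Pkhd1 overlapped FHH. The differences were 0.05 in PCK minus SD (limma adjusted p = 0.27), 0.06 for FHH.Pkhd1 against FHH (0.187), 0.10 for PCK against FHH.Pkhd1 (0.0266) and 0.11 for SD against FHH (0.0191), and none was called.

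The second probe set of Aqp1 placed the SD pool elsewhere. It read 11.29, 11.21 and 11.23 on the PCK arrays, against 11.46, 11.52 and 11.40 on the SD arrays. It read 11.16, 11.12 and 11.15 on the FHH.Pkhd1 arrays, against 11.06, 11.01 and 10.95 on the FHH arrays. SD was its highest pool, with a PCK minus SD difference of -0.21 ± 0.04 (adjusted p = 0.0023 in the fit of every probe set) and an SD minus FHH difference of 0.46 ± 0.04 (7.29e-06), neither called. Red cell genes were highest in SD as well. All 3 tested of 8 listed, Hbb, Alas2 and Ahsp, were called lower in PCK than in SD, at -0.79, -1.13 and -1.91. They were also called higher in SD than in FHH. Of all genes 3.11% and 3.31% were called in these comparisons. The red cell list level was 8.58 to 8.66 in PCK, 9.82 to 9.96 in SD, 8.79 to 8.86 in FHH.Pkhd1 and 8.67 to 8.78 in FHH. The part of red cell RNA in the Aqp1 signals was not tested. Endothelial and vasa recta genes, 8 tested of 10, had medians of 0.17 in PCK minus SD and -0.18 in SD minus FHH. Vwf, a clotting carrier made by endothelium, was the gene called in each, at 0.76 and -1.30, where 3.11% and 3.31% of all genes were called. It was also called lower in FHH.Pkhd1 than in FHH, at -0.89, opposite in sign to PCK minus SD, where 1.27% of all genes were called.

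Aqp7, the glycerol and water channel of the straight proximal tubule, read 11.18, 11.15 and 11.15 on the PCK arrays, against 11.106, 11.019 and 10.999 on the SD arrays. It read 10.86, 10.80 and 10.87 on the FHH.Pkhd1 arrays, against 11.05, 10.98 and 11.03 on the FHH arrays. PCK was highest, SD and FHH overlapped and FHH.Pkhd1 was lowest, so the pools with the mutation lay at opposite ends. PCK minus SD was 0.12 ± 0.04 (limma adjusted p = 0.0292) and FHH.Pkhd1 minus FHH was -0.17 ± 0.04 (adjusted p = 0.00693), opposite in sign, and neither was called. PCK minus FHH.Pkhd1 was 0.32 ± 0.04 (adjusted p = 2.48e-05), not called, and SD minus FHH was 0.03 (adjusted p = 0.641).

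Fat cells also hold Aqp7. Of 10 listed fat cell genes 8 were tested, and 5 (Cfd, Fabp4, Plin1, Pparg and Ucp1) were called lower in PCK than in FHH.Pkhd1, where 5.83% of all genes were called, and lower in SD than in FHH, where 3.31% were. Plin1 and Pparg had means below the detection level in PCK and SD. They passed the filter only through the FHH pools, so they had to be high there. The 3 fat cell genes that were not called went both ways. Cidec was at 0.58 for PCK against FHH.Pkhd1 and 0.22 for SD against FHH, Lipe at 0.27 and 0.21, and Adipoq at -0.18 and -0.27. Their list level was 6.92 to 6.96 in PCK, 7.01 to 7.06 in SD, 7.54 to 7.62 in FHH.Pkhd1 and 7.57 to 7.64 in FHH, higher in both FHH pools, while Aqp7 was lowest in FHH.Pkhd1 and alike in SD and FHH. The part of fat in the Aqp7 signal was not tested. Of 6 genes that use glycerol 5 were tested. Gpd2, the mitochondrial glycerol phosphate dehydrogenase, and Gk, glycerol kinase, were called lower in SD than in FHH, at -0.76 and -0.59, where 3.31% of all genes were called. No glycerol gene was called in the other 3 comparisons of pools.

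Aqp8 read 5.22, 5.07 and 5.20 on the PCK arrays, 5.29, 5.29 and 5.46 on the SD arrays, 5.15, 5.04 and 5.16 on the FHH.Pkhd1 arrays and 5.09, 5.28 and 5.22 on the FHH arrays. Every value was below the detection level, and it was not tested.

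The 26 tested proximal tubule genes had medians of -0.05 for PCK against SD, -0.03 for FHH.Pkhd1 against FHH, 0.05 for PCK against FHH.Pkhd1 and 0.10 for SD against FHH, beside -0.003, 0.01, -0.06 and -0.04 over all genes. In PCK minus FHH.Pkhd1, where 5.83% of all genes were called, 4 of the 26 were called, all higher. They were Acmsd, an enzyme of tryptophan breakdown, at 1.24, Slc22a7, an organic anion transporter, at 1.06, Slc7a13, an amino acid transporter, at 0.83, and Anpep, a brush border peptidase, at 0.71. The list ran from -0.47 to 1.24 there, so it held a gene with a larger difference than Aqp11. None was called in SD minus FHH, where 18 of 26 were above 0. In PCK minus SD 1 was called, Slc22a7, higher at 0.78, where 3.11% of all genes were called. It was also the 1 gene of the list called in FHH.Pkhd1 minus FHH, lower at -0.72, where 1.27% were. The level of the list was 11.46 to 11.47 in PCK, 11.45 to 11.46 in SD, 11.26 to 11.31 in FHH.Pkhd1 and 11.35 to 11.38 in FHH.

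**Figure D2:**
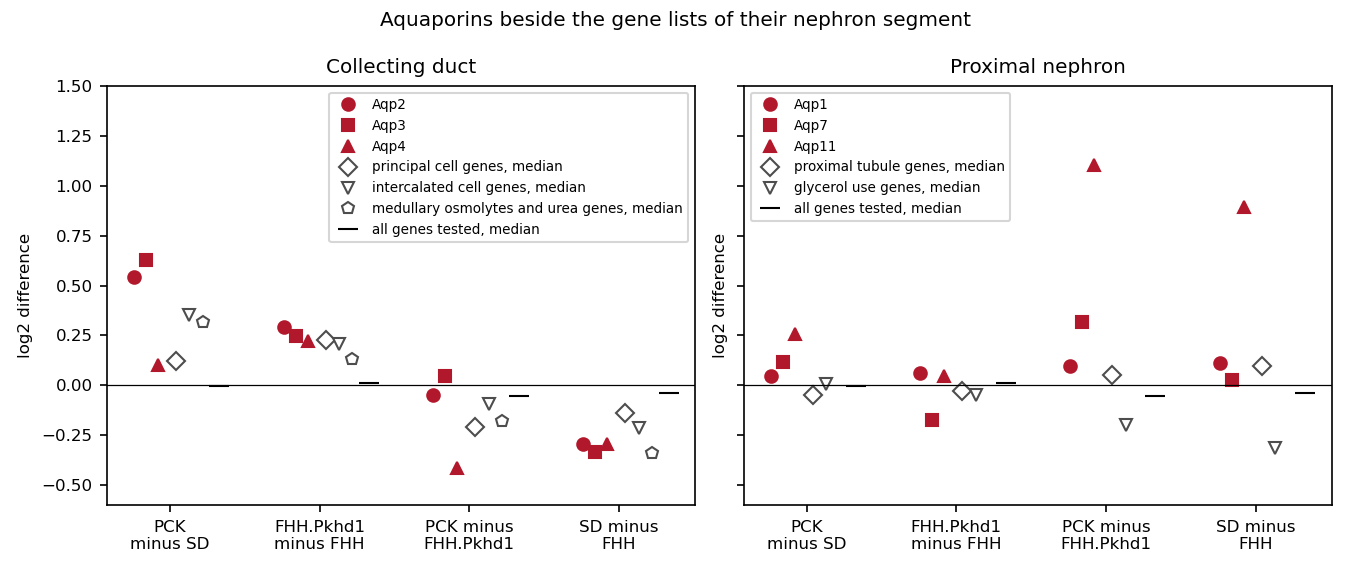
Log2 differences between pools (vertical axis) in the 4 comparisons (horizontal axis) for the collecting duct aquaporins (left panel) and the proximal ones (right panel); filled red symbols are aquaporins, open symbols are the medians of gene lists of the same segment and dashes are the medians of all genes tested. Principal cell genes have a median of 0.12 in PCK minus SD against 0.54 for Aqp2 and 0.63 for Aqp3, and Aqp11 is at 1.11 in PCK minus FHH.Pkhd1, where the median of the proximal tubule list is 0.05.

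Set against the segments, the 3 tested collecting duct aquaporins and the 3 tested proximal ones had different patterns over the pools. By their brightest probe sets the collecting duct aquaporins were above 0 for PCK against SD (median 0.54) and for FHH.Pkhd1 against FHH (median 0.25). All 3 were below 0 in SD minus FHH (median -0.30). For PCK against FHH.Pkhd1 they differed in sign, with 1 of 3 above 0, a median of -0.05 and a range of -0.41 to 0.05. By their brightest probe sets the proximal aquaporins were above 0 for PCK against SD (median 0.12), for PCK against FHH.Pkhd1 (median 0.32) and for SD against FHH (median 0.11), and 2 of 3 were above 0 in FHH.Pkhd1 minus FHH (median 0.05). Some of these values were small and did not pass the test. Aqp1 was at 0.05 in PCK minus SD (limma adjusted p = 0.27) and Aqp7 at 0.03 in SD minus FHH (0.641). In FHH.Pkhd1 minus FHH, Aqp1 was at 0.06 (0.187) and Aqp11 at 0.05 (0.524). The second probe set of Aqp1 was at -0.21 in PCK minus SD (limma adjusted p = 0.0023 in the fit of every probe set). Aqp4 was at 0.10 in PCK minus SD by its brightest probe set (limma adjusted p = 0.0404). The mean over its probe sets was -0.055, with the dimmer ones below the detection level in PCK and SD. PCK minus SD shares the SD arrays with SD minus FHH and the PCK arrays with PCK minus FHH.Pkhd1, so these signs are not independent of each other. With 3 genes a segment the difference between segments was not tested.

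Counted over the 6 tested aquaporins, 1 was called in PCK against SD (Aqp3, higher), against 3.11% of all genes tested. None was called in FHH.Pkhd1 against FHH, where limma called 1.27% of all genes. One was called in PCK against FHH.Pkhd1 (Aqp11, higher), where 5.83% of all genes were called, and 1 in SD against FHH (Aqp11, higher), where 3.31% were. With no fold limit, an adjusted p under 0.05 was reached by 5 of 6 in PCK against SD and by 36.1% of all genes, by 4 of 6 in FHH.Pkhd1 against FHH and by 22.2%, by 4 of 6 in PCK against FHH.Pkhd1 and by 53.9%, and by 5 of 6 in SD against FHH and by 37.1%. Small differences between pools were thus resolved widely across the table, and a small adjusted p was common. In PCK against SD, Aqp4 (limma adjusted p = 0.0404) and Aqp7 (0.0292) lay near this limit and were above it in some alternatives. By their brightest probe sets all 6 had every PCK array above every SD array, as had 22.8% of all genes, though the second probe set of Aqp1 had every PCK array below every SD array. The mean over a gene's probe sets put PCK minus SD at -0.082 for Aqp1 and -0.055 for Aqp4. For Aqp4 that mean includes probe sets below the detection level in PCK and SD. By the brightest probe sets 3 of 6 had every FHH.Pkhd1 array above every FHH array, as had 21.9%. The members' medians were 0.19, 0.14, 0.07 and -0.13 in the 4 comparisons, against -0.003, 0.01, -0.06 and -0.04 over all genes.

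**Figure D3:**
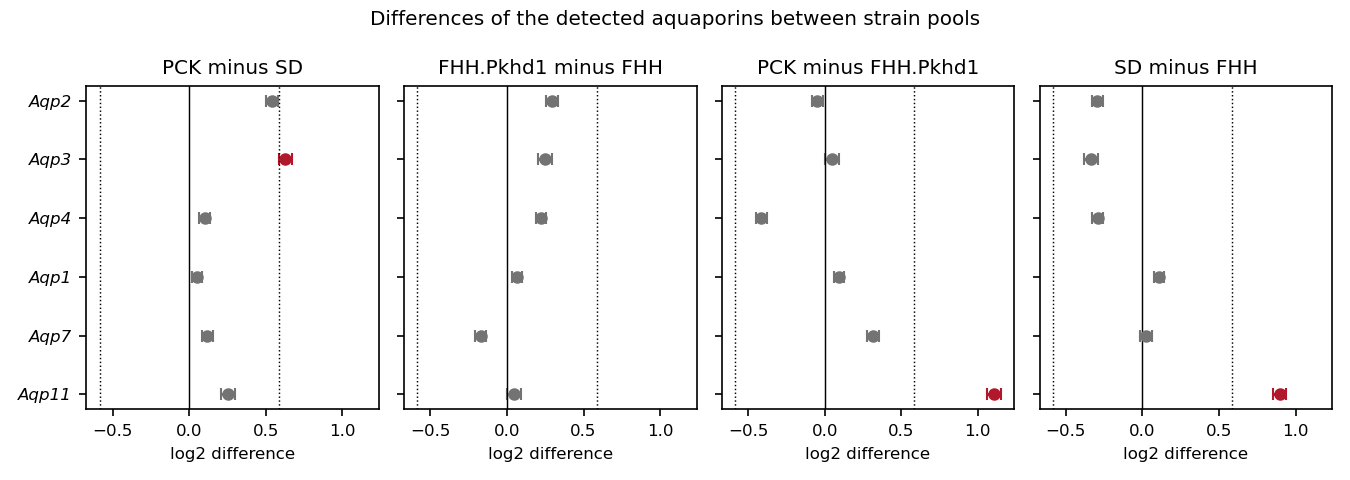
Log2 difference between pools with its SE (horizontal axis) for each of the 6 tested aquaporins, 1 panel for each of the 4 comparisons of pools; dotted lines mark the 1.5-fold limit at 0.585 and red points are called. Beyond the limit lie Aqp3 in PCK minus SD, at 0.63, and Aqp11 in PCK minus FHH.Pkhd1, at 1.11, and again in SD against FHH, at 0.90.

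The difference between the pools with and without the mutation was compared between backgrounds by the interaction, (PCK minus SD) minus (FHH.Pkhd1 minus FHH). No aquaporin reached the 1.5-fold limit, and limma called 5.02% of all genes. An adjusted p under 0.05 was reached by 4 of 6 and by 30.7% of all genes. Aqp3 had the largest value, 0.38 ± 0.06 (adjusted p = 0.000719), followed by Aqp7 at 0.29 ± 0.05 (0.00156), Aqp2 at 0.25 ± 0.05 (0.00374) and Aqp11 at 0.21 ± 0.06 (0.025). For Aqp2 and Aqp3 the difference was positive on both backgrounds and larger in PCK minus SD. For Aqp11 it was positive in PCK minus SD and did not pass the test in FHH.Pkhd1 minus FHH (limma adjusted p = 0.524). For Aqp7 its sign differed. Aqp4 was at -0.12 ± 0.05 (0.0825) and Aqp1 at -0.02 ± 0.05 (0.837). The second probe set of Aqp1 gave -0.36 ± 0.06 (0.000945), not called. The second of Aqp4 gave -0.85 ± 0.11 (0.000178), called where 6% of all probe sets were, but it was tested only because FHH.Pkhd1 was high, and its other 3 pools lay below the detection level.

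**Figure D4:**
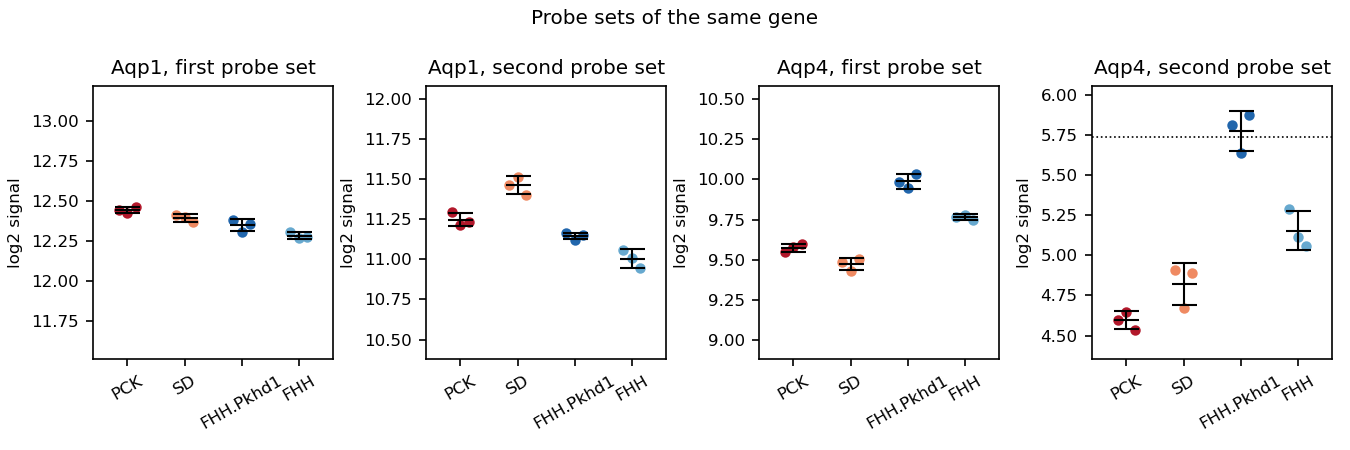
Log2 signal (vertical axes) of the first (brightest) and second probe sets of Aqp1 and Aqp4 on the 3 arrays of the PCK, SD, FHH.Pkhd1 and FHH pools (horizontal axis); points are arrays, long marks are pool means, error bars are SD and the dotted line is the detection level of 5.74. The SD pool is at 12.39, below PCK, in the brightest probe set of Aqp1 and at 11.46, above PCK, in the second; the second probe set of Aqp4 has a mean above the dotted line in FHH.Pkhd1 alone, through which it passed the filter.

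Likeness between profiles was measured as the Euclidean distance of log2 values, each gene centred over the 12 arrays, which form 4 pools and not 12 independent samples. The distance is not scaled by how much a gene varies, so genes that vary little come out close. Aqp2 and Aqp3 were 0.27 apart. Outside the family the 3 genes nearest Aqp3 were Foxi1 at 0.23, Pnpla2, the triglyceride lipase, at 0.26 and Cldn4, a tight junction protein, at 0.27. Cldn4 averaged 8.26 in PCK and 7.72 in SD, and 8.32 in FHH.Pkhd1 and 8.11 in FHH. The 3 nearest Aqp11 were Hsd11b1, the enzyme that regenerates active glucocorticoid, at 0.37, Tstd1, a thiosulfate sulfurtransferase, at 0.42 and Slco1a3, an organic anion transporter, at 0.46. Hsd11b1 averaged 13.06 in PCK and 11.74 in FHH.Pkhd1, and 12.74 in SD and 11.94 in FHH.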

How the data were processed

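Kidney RNA of 4 strains, 1 pool each on 3 arrays, was grouped by the strain label. The authors deposited log2 probe set signals and, per the submitters' processing notes, used RMA and Partek 6.2; joint normalization of the 12 arrays is neither stated nor denied there. No further normalization was applied. Of 31099 probe sets 57 were controls, 20826 carried 1 gene symbol, 436 several and 9780 none; 20758 were matched to GRCr8 gene records. The probe set with the highest mean was kept for each gene. All 12 arrays were fitted with 1 mean per strain by limma 3.58.1 (R 4.3.3) and eBayes. The fit was tested on simulated data. Promoters were searched on both strands. Figures were drawn with matplotlib 3.10.9. The aquaporins and gene lists were chosen with earlier results of these data known. Named were every aquaporin probe set and up to 4 called members of a list, but 5 of the fat cell list. With none called, the 2 largest values of a list were named in some comparisons and not in others. For each called aquaporin the 3 nearest genes were named. Avpr2, Akr1b1, Slc6a6, Insrr, the uncalled fat cell genes and the pair of Aqp2 and Aqp3 were chosen after their values were seen. Array numbers did not pair the samples: deviations of same-numbered arrays correlated between -0.20 and 0.34. Alternatives covered the filter, probe set choice, fold limit, variance model, arrays fitted, normalization, the replicate number as a block and leaving out each array.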

Additional observations from a re-analysis of the deposited data

Results flagged for a closer look

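The values below stood out because the difference between the pools with and without the mutation was not the same on the 2 backgrounds, by limma's interaction of (PCK minus SD) minus (FHH.Pkhd1 minus FHH). Aqp3 gave 0.38 (adjusted p = 0.000719), with 0.63 for PCK against SD and 0.25 for FHH.Pkhd1 against FHH. Aqp2 gave 0.25 (0.00374), with 0.54 and 0.29 in the same comparisons. Aqp11 gave 0.21 (0.025), with 0.26 and 0.05. Aqp7 gave 0.29 (0.00156), with opposite signs, 0.12 and -0.17. The second probe set of Aqp1 gave -0.36 (0.000945), with -0.21 and 0.14, while the brightest one gave -0.02. The second probe set of Aqp4 gave -0.85 (0.000178), called, but from signals below the detection level in every pool but FHH.Pkhd1.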

How the results depend on the processing

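With no fold limit the aquaporins called were 5 in PCK against SD, 4 in FHH.Pkhd1 against FHH and 4 in PCK against FHH.Pkhd1. There were 5 in SD against FHH and 4 in the interaction. All genes called were then 3934, 2423, 5877, 4041 and 3345. In PCK against SD the limma adjusted p of Aqp4 was 0.0649 with no filter and 0.149 without SD replicate 2. That of Aqp7 was 0.0629 with only the arrays of the 2 groups compared and 0.105 without SD replicate 3. With a 2-fold limit no aquaporin was called by limma in PCK against SD or in SD against FHH, and all genes called were 111, 31, 201, 114 and 170 in the 5 comparisons. With every probe set in 1 fit, 262 probe sets were called in FHH.Pkhd1 against FHH and 881 in the interaction. Averaging all probe sets of a gene turned PCK minus SD to -0.082 for Aqp1 and -0.055 for Aqp4, whose dimmer probe sets lay below the detection level in PCK and SD. Without SD replicate 1, Aqp7 in SD minus FHH was -0.007. The interaction of Aqp1 was 0.046 after quantile normalization and ran from -0.036 to 0.001 when each array was left out in turn, turning only without FHH.Pkhd1 replicate 1. Each of these 5 reversed values started from 0.12 or less in size, and beyond what the averaging itself shows the cause was not tested. Leaving out each array in turn, the aquaporins called stayed at 1, 0, 1, 1 and 0 in the 5 comparisons; Aqp3 in PCK minus SD ran from 0.60 to 0.67, and Aqp11 from 1.08 to 1.14 in PCK minus FHH.Pkhd1 and from 0.87 to 0.92 in SD minus FHH. The replicate number as a block gave the same counts of aquaporins, 1, 0, 1, 1 and 0, and of all genes, 339, 138, 635, 361 and 547; the numbers do not pair the samples. Of 654 alternative values of single differences 628 kept their direction and stayed called or uncalled. Of the rest, 19 became called with no fold limit, 2 were no longer called with the 2-fold limit and 5 turned. The count is no measure of robustness, because the filter, fold limit, variance model, arrays fitted and block cannot change a difference. Nor can leaving out an array of a pool outside the comparison. The fit of every probe set was read at the brightest ones, so the second probe sets of Aqp1 and Aqp4 are not counted. Limits: 1 pool a strain gives no animal replicate, the 2 probe sets of Aqp1 disagreed on PCK and SD, and only the brightest probe set of Aqp4 was above the detection level in those pools.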

Other observations

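Of the 4 other aquaporin family genes with a probe set, Aqp5, Aqp9, Aqp12a and Mip, only Aqp12a reached the detection level. It differed little between pools, at 0.12 ± 0.12 in PCK minus SD (SE; limma adjusted p = 0.487) and -0.12 ± 0.12 in FHH.Pkhd1 minus FHH (adjusted p = 0.527), and it was not called in any comparison.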
